A study of Mus musculus with 10 samples.

Results

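Potassium channel genes, here the protein-coding mouse genes whose symbol starts with Kcn, were examined in the cortex of 5XFAD mice with and without neuronal Idol. The GENCODE annotation of GRCm39 holds 94 such genes, all of them in the deposited counts, and the 81 with more than 10 reads in total over the 10 libraries are described here, out of 19268 genes that passed the same limit. The other 13 (Kcna7, Kcna10, Kcne1, Kcne2, Kcne3, Kcnj1, Kcnj15, Kcnk7, Kcnk15, Kcnk16, Kcnk18, Kcnmb3 and Kcnv2) had 10 reads or fewer and were not tested. None of the 81 passed the test between the groups, and for the abundant ones the data limit any difference to a narrow interval.

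The samples were cortices of 4-month-old female mice, with 5 libraries labelled 5XFAD;Neu cKO and another 5 labelled 5XFAD. All 10 mice carried the 5XFAD transgenes, human genes with mutations of familial Alzheimer's disease that give amyloid plaques. 5XFAD;Neu cKO mice came from crosses to floxed Idol (Mylip, a ubiquitin ligase that targets lipoprotein receptors) and to a Camk2a-Cre line, whose promoter is active mainly in excitatory forebrain neurons, so other cells should have kept Idol. The control labels end in Camk2a-cre WT and the others in Camk2a-cre cKO, without saying which gene WT refers to. A legend of the study glosses WT as wild type for Idol. RNA was read near the 3′ end of each transcript (QuantSeq), so a level counts transcript ends and does not grow with transcript length.

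Potassium channels let potassium leave the cell and so set the resting potential, end the action potential and limit repetitive firing. Most are built of pore-forming subunits, named by subfamily, with auxiliary subunits that steer their trafficking and gating. Glia use inward rectifiers to take up the potassium that active neurons release. In Alzheimer's disease models, neuronal hyperexcitability and a changed glial handling of potassium have both been studied through these genes.

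The pore-forming subunits share the selectivity filter, a loop whose backbone oxygens replace the water around a potassium ion. Its coding signature, a codon for threonine or serine, then valine, isoleucine or leucine, then glycine, then tyrosine or phenylalanine, then glycine, was searched in frame in the canonical coding sequence of every member. It occurred in 67 of the 81 members (82.7%) and in 83 of 21499 other protein-coding genes (0.386%). Of the 67 genes, 60 held it once and 7, all in the Kcnk family, held it 2 times. The 14 genes without it were the 13 auxiliary subunits and Kcnk1. The search took this pattern only, so a miss, as in Kcnk1, does not show that a channel gene lacks a filter. The same limit applies to Kcnk2 and Kcnk6, where it was found 1 time. The windows below are those of some members that the results turn on, abundant genes and genes with a low p, with the 15 bases of the signature in capitals, read from GRCm39 on the coding strand.
Kcna6 (chr6:126715604-126715633, - strand): acaatgaccACGGTAGGTTATGGGgacatg
Kcna2 (chr3:107012531-107012560, + strand): tccatgacaACTGTAGGCTATGGAgacatg
Kcnq3 (chr15:65895574-65895603, - strand): acactggccACCATTGGTTATGGAgacaag
Kcnma1 (chr14:23578475-23578504, - strand): acaatgtctACAGTGGGTTATGGGgacgtt
Kcnj10 (chr1:172196860-172196889, + strand): tcccagaccACCATCGGCTATGGCttccgc
Kcnh7 (chr2:62607681-62607710, - strand): agtctaaccAGTGTAGGATTTGGAaatgtg
Kcnk3, second signature (chr5:30779537-30779566, + strand): accctcaccACCATCGGCTTCGGCgactat

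The 74 windows of the members held 73 distinct sequences. The fourth codon reads tyrosine in 51 windows and phenylalanine in 23, among them all 7 second signatures of Kcnk genes and Kcnh7 above. The 3′ reads counted here lie at the ends of transcripts and do not read these bases.

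Library depth ran from 4320504 to 7466192 gene reads in 5XFAD and from 5148499 to 7246659 in 5XFAD;Neu cKO, of which 20401 to 33956 per library fell on the 81 Kcn genes. Levels are given as CPM, the reads of a gene scaled to a common library size with edgeR's TMM factors. Mylip, the targeted gene, was counted at 14.8 ± 4.90 CPM in 5XFAD;Neu cKO and 11.2 ± 2.27 in 5XFAD (mean ± SD, n = 5 each), with a log2 fold change of 0.39 ± 0.25 (SE) and an adjusted p of 0.777 (edgeR, quasi-likelihood test, Benjamini-Hochberg over all genes tested). The difference did not pass the threshold, but its direction is not that of a deletion, so each direction below refers to the libraries labelled 5XFAD;Neu cKO against those labelled 5XFAD. Whether 3′ reads lie outside the deleted part of Mylip was not tested.

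With p-values of edgeR's quasi-likelihood test adjusted over all genes tested (Benjamini-Hochberg), 0 of 81 Kcn genes had an adjusted p under 0.05, where 0.218% of all genes (42) did. DESeq2, which gave an adjusted p for 39 of the 81, called 0 of them, against 1.25% of the genes it adjusted. At an unadjusted p under 0.05 there were 4 Kcn genes, with Kcna6, Kcnj10 and Kcnj16 among them, by either tool, against a background of 7.95% of all genes by edgeR and 7.07% by DESeq2, so the count stood below the share of all genes. All 4 were lower in 5XFAD;Neu cKO libraries, where 4.01% of all genes were, and 0 were higher, where 3.94% of all genes were. Their number fell to 2, with Kcna6 kept and Kcnj10 and Kcnj16 lost, without 5XFAD;Neu cKO replicate 2. The groups did not overlap for 1 Kcn gene, Kcnj16, against 1.3% of all genes (0.721% lower and 0.576% higher).

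On the TMM scale, Kcn genes lay on the lower side more often than not, with small differences. The fold change was below 1 for 54 of 81 (66.7%), where 50.1% of all genes were, and the median log2 fold change was -0.07, where that of all genes was -0.0006. The share of lower genes depended on level over all genes too. At 100 CPM or more it was 11 of 14 Kcn genes, beside 61.2% of all genes at that level. At 10 CPM or more it was 35 of 50, beside 50.9% of all genes. The summed level of the Kcn genes was 4439 ± 163 CPM in 5XFAD;Neu cKO (4297 to 4631) and 4643 ± 85.3 in 5XFAD (4561 to 4787). The sum over all genes on the same scale was 970577 ± 35918 and 1031800 ± 49251. Both sums follow the TMM factors of the libraries, so neither is a measure of total expression. As a share of the sum over all genes, the Kcn sum was not lower in 5XFAD;Neu cKO. The lower side thus belongs to the scaled values. With DESeq2's size factors, and with TMM but no mitochondrial genes, 54 of 81 were lower too.

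The level of Kcn genes was held by few of them. Kcnma1, the pore of the large-conductance calcium-activated (BK) channel, was the highest at 477 ± 17.5 CPM over the 10 libraries, and its lowest library, at 449 CPM, stood above every library of each other Kcn gene. Kcna2, the axonal low-threshold channel, was at 272 ± 19.9 CPM, above Kcnq3 in 9 of 10 libraries. Kcnq3, a subunit of the M-current that muscarinic receptors close, was at 229 ± 19.5 and above Kcnd2, the A-type channel of dendrites at 205 ± 22.4, in 8 of 10. The means of Kcnc1, Kcna1 and Kcnh7 lay between 186 and 192 CPM, and Kcna1 was above Kcnh7 in 5 of the 10 libraries, so the order of that pair was not resolved. The 9 most abundant genes together took 50.7% of all Kcn CPM. At the other end, 31 members stayed under 10 CPM and 9 under 1 CPM, and 68 were counted in every library.

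**Figure D1:**
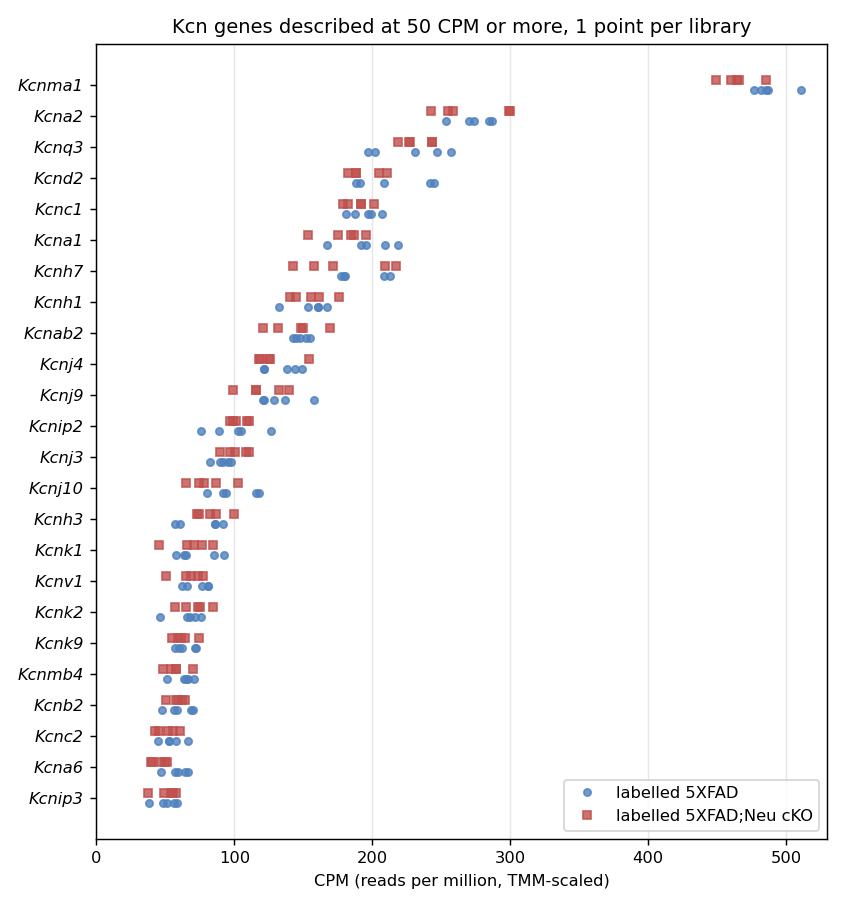
Level in CPM (horizontal axis, linear from 0) of 24 Kcn genes at 50 CPM or more, 1 point per library, with circles for 5XFAD and squares for 5XFAD;Neu cKO. The points of the groups overlap for each gene shown, from Kcnma1 at 449 to 511 CPM down to Kcnip3.

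Kcna6, a Kv1 subunit that joins Kcna1 and Kcna2 in axonal channels (chromosome 6, 126685292 to 126717644 of GRCm39), was lower. It was at 57.2, 66.6, 64.0, 46.4 and 59.0 CPM in 5XFAD and at 39.4, 51.1, 50.0, 47.1 and 39.9 in 5XFAD;Neu cKO. A single 5XFAD library, replicate 4, lay within the range of the other group. The log2 fold change was -0.36 ± 0.13 (SE), with an adjusted p of 0.389 by edgeR's quasi-likelihood test and p = 0.0317 by the exact permutation test (n = 5 per group). Permutation p-values here and below are unadjusted. For genes named for a low edgeR p they reuse the same values and are no separate support.

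Kcnj10 and Kcnj16, inward rectifiers that combine in glial membranes to take up potassium, were both lower. Kcnj10 (chromosome 1, 172168765 to 172201652) was at 92.1, 116, 118, 93.6 and 80.1 CPM in 5XFAD and at 103, 64.9, 86.9, 78.1 and 74.1 in 5XFAD;Neu cKO, with ranges that overlapped. Its log2 fold change was -0.30 ± 0.12 (SE), with an adjusted p of 0.449 by edgeR's quasi-likelihood test and p = 0.103 by the exact permutation test (n = 5 per group). Kcnj16 (chromosome 11, 110858843 to 110927617) was at 43.2, 41.3, 44.0, 44.6 and 46.2 CPM in 5XFAD and at 31.4, 28.5, 39.4, 39.5 and 36.2 in 5XFAD;Neu cKO. Each 5XFAD library lay above each 5XFAD;Neu cKO library, the closest pair being 41.3 and 39.5 CPM. The log2 fold change was -0.32 ± 0.14 (SE), the adjusted p 0.522 by edgeR's quasi-likelihood test, and the exact permutation p = 0.00794, the smallest that 5 libraries against 5 can give. Any gene whose groups do not overlap has this permutation p.

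**Figure D2:**
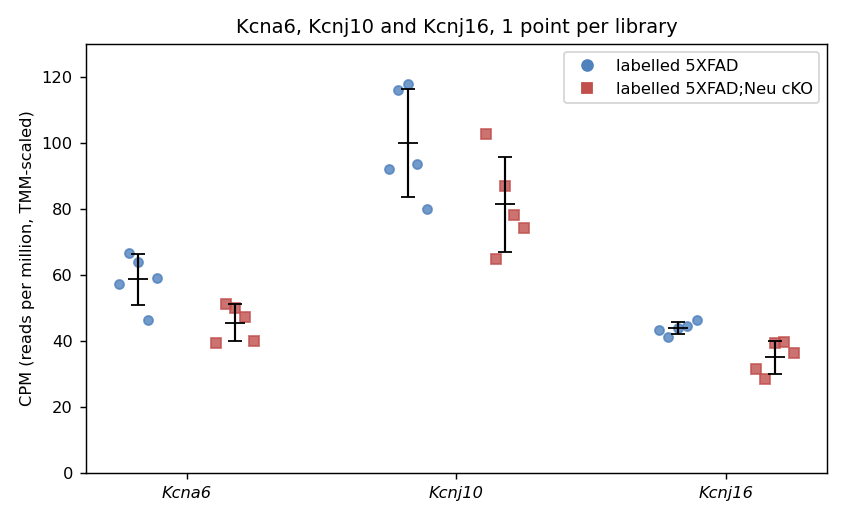
Level in CPM (vertical axis, from 0) of Kcna6, Kcnj10 and Kcnj16, each with an unadjusted p under 0.05, 1 point per library, with the mean and SD of 5 libraries per group in black. The groups are apart for Kcnj16 and overlap for Kcna6 and Kcnj10.

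Most astrocyte and oligodendrocyte markers lay on the lower side, like these inward rectifiers, with summed levels that overlapped between the groups. The summed level of 8 astrocyte markers was 4445 ± 222 CPM in 5XFAD;Neu cKO (4141 to 4756) and 4637 ± 341 in 5XFAD (4277 to 5021), with 7 of 8 lower and 1, Gfap, past the adjusted threshold by edgeR. The 8 oligodendrocyte markers summed to 2155 ± 427 CPM (1766 to 2798) and 2550 ± 356 (1956 to 2894), with 8 of 8 lower and 0 past the threshold, 4 of them at an unadjusted p under 0.05 and Mobp nearest at an adjusted p of 0.0662. The 5 markers of oligodendrocyte precursors did not share this direction, with 3 of 5 higher and sums of 146 ± 21.6 and 144 ± 22.8 CPM. Of all genes, 50.1% were lower, 7.95% had an unadjusted p under 0.05 and 0.218% passed the adjusted threshold by edgeR. At 50 CPM or more, 56.9% were lower and 14.1% had an unadjusted p under 0.05. In bulk tissue, fewer cells of a type and less RNA per cell cannot be told apart, and the part of these markers in the values of Kcnj10 and Kcnj16 was not tested. Kcnk1, a K2P leak channel of astrocytes, was at 85.3, 92.7, 63.3, 65.2 and 57.5 CPM in 5XFAD and at 84.1, 71.0, 65.6, 76.4 and 45.2 in 5XFAD;Neu cKO, ranges that overlapped from 57.5 to 84.1 CPM. Its log2 fold change was -0.09, with an interval from -0.35 to 0.18.

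Microglial markers were lower by more, and the Kcn genes known in microglia were too rare to be read against them. The 11 microglial markers summed to 373 ± 33.3 CPM in 5XFAD;Neu cKO (318 to 403) and 589 ± 97.6 in 5XFAD (464 to 684). All 11 were lower and 6 passed the adjusted threshold by edgeR. Of all genes, 50.1% were lower and 0.218% passed it. Kcnk13, the K2P channel through which microglia lose potassium before the inflammasome forms, was at 3.88, 2.58, 3.40, 3.91 and 7.63 CPM in 5XFAD and at 2.99, 4.78, 5.25, 2.02 and 5.31 in 5XFAD;Neu cKO, or 11 to 40 reads per library. Its log2 fold change was -0.06, with a 95% interval from -0.92 to 0.80, which spans the median of -0.53 of the microglial markers, so a difference of that size was not detectable at this depth. Kcnk6, another K2P channel, was counted 0 to 16 times and had an interval from -1.88 to 1.59. Kcna3, the Kv1 channel of lymphocytes and microglia, was counted 2 to 22 times and stood at 2.44 ± 1.00 against 1.63 ± 1.16 CPM, with an interval from -0.70 to 1.88. Kcnn4, the intermediate-conductance calcium-activated channel of the same cells, was counted 0 to 6 times.

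**Figure D3:**
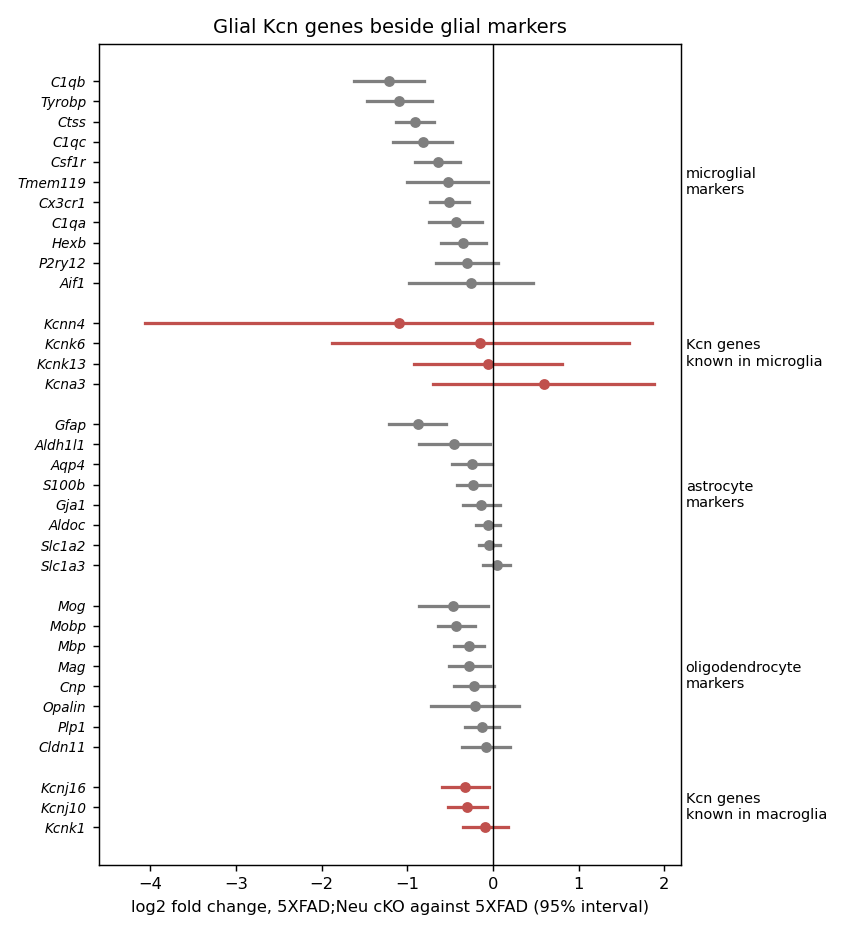
Log2 fold change (horizontal axis, points) with its 95% interval (lines) for glial marker genes in grey and Kcn genes known in glia in red. The interval of each microglial Kcn gene crosses 0 and also takes in the median of -0.53 of the microglial markers, while Kcnj10 and Kcnj16 lie at -0.30 and -0.32 with intervals below 0.

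For the abundant neuronal pores the intervals were narrow. The neuronal marker lists were split in direction. The 8 excitatory markers were at a summed 4290 ± 240 CPM in 5XFAD;Neu cKO and 4500 ± 379 in 5XFAD, with 4 lower. The 8 inhibitory markers were at 908 ± 63.2 and 860 ± 63.7, with 4 lower. By edgeR 0 of either list passed the adjusted threshold, with 0 and 3 at an unadjusted p under 0.05. Of all genes 7.95% were under that p, and 14.1% at 50 CPM or more. Kcnma1 was at 487, 511, 482, 476 and 485 CPM in 5XFAD and at 460, 466, 465, 485 and 449 in 5XFAD;Neu cKO, so that only replicate 4 of the latter reached into the range of the former. The fitted fold was 0.952, with a 95% interval from 0.861 to 1.05 and an adjusted p of 0.905 by edgeR, while the exact permutation test, which uses the spread of this gene alone, gave p = 0.0238 (n = 5 per group). Kcna2 had a fold of 0.989 (0.882 to 1.11), Kcnq3 of 1.02 (0.907 to 1.15) and Kcnc1 of 0.974 (0.865 to 1.10).

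Over all members, the 95% interval lay within a 1.5-fold difference either way for 40 of 81 genes, and within a 2-fold difference for 56. These intervals come from the edgeR fit, which takes the spread of a gene in part from other genes. The precision followed the level. At 100 CPM or more all 14 genes were held within 1.5-fold, and at 10 CPM or more 40 of 50 were within 1.5-fold and 50 of 50 within 2-fold. Of the 31 members under 10 CPM, 6 were held within 2-fold, and for the rest a 2-fold difference in at least 1 direction stayed inside the interval.

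**Figure D4:**
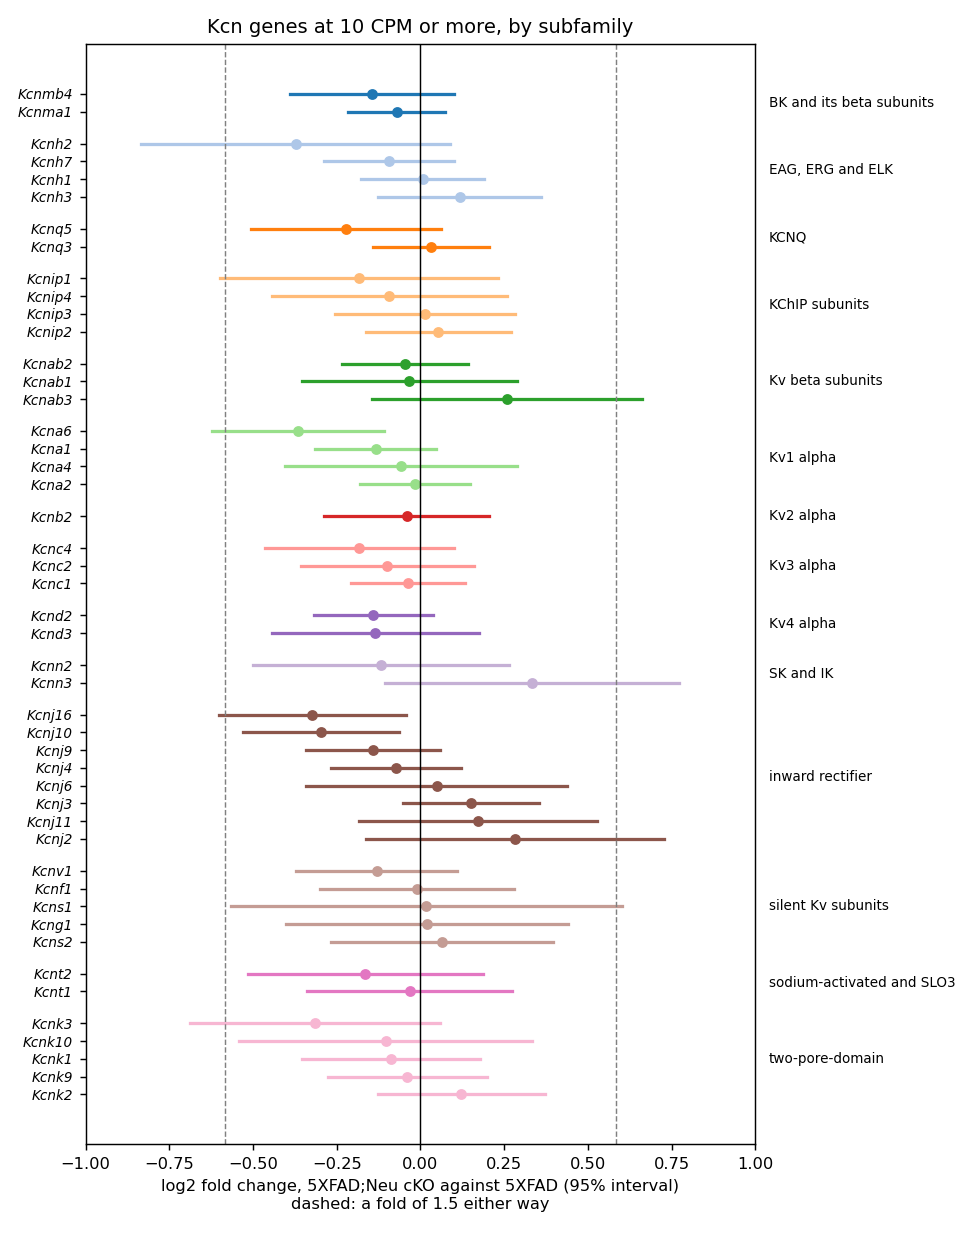
Log2 fold change (horizontal axis, points) with its 95% interval (lines) for 47 Kcn genes at 10 CPM or more, by subfamily, with dashed lines at a fold of 1.5 either way. The intervals of Kcna6, Kcnj10 and Kcnj16 lie below 0, none lies above 0, and 38 of 47 stay between the dashed lines.

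Among the voltage-gated pore-forming subfamilies, no subfamily held a gene past the adjusted threshold. The 4 Kv3 genes (Kcnc), which repolarise fast-spiking neurons, were all lower, at a median of -0.14 on the log2 scale. That of Kcnc1, the main Kv3 subunit of parvalbumin interneurons, was -0.04 and that of Kcnc2 -0.10, and both had ranges that overlapped. The 6 Kv1 genes (Kcna) had a median of -0.04 with 4 lower. Of the 3 Kv4 genes (Kcnd), Kcnd2 was at 208, 245, 191, 188 and 242 CPM in 5XFAD and at 210, 205, 188, 188 and 183 in 5XFAD;Neu cKO, ranges that overlapped, a log2 fold change of -0.14 with an adjusted p of 0.778 by edgeR.

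The 9 silent subunits (Kcnf, Kcng, Kcns and Kcnv), which form no channel alone and modify Kv2 channels, were split, 4 lower and 5 higher, with a median of 0.02. Kcnv1, the most abundant of them, was at 73.1 ± 8.91 CPM in 5XFAD and 66.9 ± 10.4 in 5XFAD;Neu cKO. Kcng2 was at 5.23 ± 2.07 CPM in 5XFAD and 6.99 ± 2.24 in 5XFAD;Neu cKO. Kcns3, a subunit known from parvalbumin interneurons, was at 1.74, 1.88, 2.31, 6.52 and 0.449 CPM in 5XFAD and at 11.2, 3.49, 0.788, 1.01 and 2.15 in 5XFAD;Neu cKO. Replicate 1 of the latter alone set its direction, since its log2 fold change of 0.49 became -0.49 without that library.

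KCNQ channels (Kcnq) gave 2 lower and 3 higher genes, with a median of 0.03. Kcnq5 was at 42.2, 59.4, 61.7, 45.5 and 42.4 CPM in 5XFAD and at 47.9, 30.2, 49.9, 43.6 and 43.7 in 5XFAD;Neu cKO, and Kcnq3 was at 227 ± 26.9 and 232 ± 10.9. Both genes overlapped between the groups, and the log2 fold change of Kcnq5 was -0.22 with an adjusted p of 0.778 by edgeR. In the EAG, ERG and ELK family (Kcnh), 5 of 8 were lower with a median of -0.11. Kcnh7, the most abundant ERG gene, was at 192 ± 17.3 CPM in 5XFAD and 180 ± 32.3 in 5XFAD;Neu cKO, and Kcnh2, the gene of the cardiac hERG channel, at 15.6 ± 3.20 and 12.01 ± 2.87. Kcnh4, an ELK gene, went the other way at 2.67 ± 1.63 and 3.72 ± 1.93 CPM.

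Calcium- and sodium-activated channels differed little. The BK subfamily, Kcnma1 with the beta subunits Kcnmb1, Kcnmb2 and Kcnmb4, was the only one of the 16 whose summed level did not overlap between the groups, at 528 ± 15.1 CPM in 5XFAD;Neu cKO (513 to 547) and 559 ± 8.72 in 5XFAD (550 to 571). Kcnma1, whose own groups overlapped, made up most of the sum. It was at 465 ± 13.0 CPM in 5XFAD;Neu cKO and 488 ± 13.3 in 5XFAD. Of the 4 genes, 3 were lower and 1 was higher. The sum was not tested, and none of its 4 genes had an unadjusted p under 0.05. Groups without overlap were found for 1.3% of all single genes, and no such share was taken for sums. Among small-conductance channels, which carry the afterhyperpolarisation, Kcnn3 was at 11.4, 20.6, 11.1, 14.0 and 11.2 CPM in 5XFAD and at 14.8, 19.5, 16.0, 18.7 and 16.8 in 5XFAD;Neu cKO. All but replicate 2 of the 5XFAD libraries lay under each 5XFAD;Neu cKO library. Its log2 fold change of 0.33 had the lowest p of the higher genes. The adjusted p was 0.797 by edgeR, and p = 0.0873 by the exact permutation test (n = 5 per group). Its unadjusted edgeR p was under 0.05 in 1 of 10 fits with a library left out, that without 5XFAD replicate 2. With all libraries kept, this held in 0 of 7 alternatives. That replicate ran against the direction, so the fit without it is no support. Kcnn2, the main neuronal member, was at 20.2 ± 1.22 and 18.6 ± 3.69 CPM in 5XFAD and 5XFAD;Neu cKO, and Kcnt1, a sodium-activated channel, at 30.7 ± 1.92 and 30.0 ± 3.33.

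**Figure D5:**
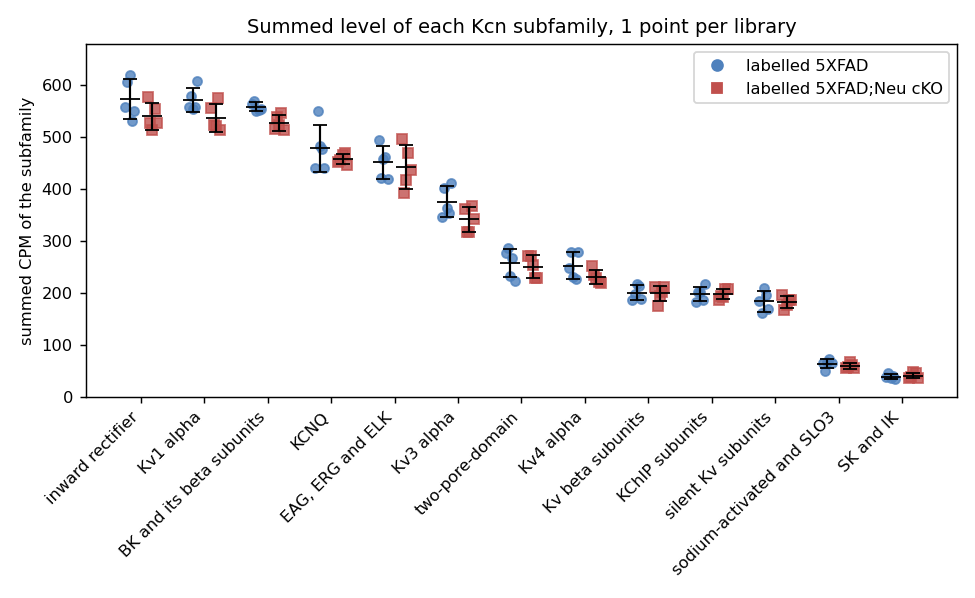
Summed level in CPM (vertical axis, from 0) of 13 Kcn subfamilies, 1 point per library, with circles for 5XFAD, squares for 5XFAD;Neu cKO and the mean and SD of 5 libraries in black. The groups overlap in each subfamily except BK, at 550 to 571 against 513 to 547 CPM.

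Of the 13 inward rectifiers (Kcnj), 9 were lower with a median of -0.14, and the genes that gate neuronal excitability went in both directions. Kcnj3, the obligate partner in G protein-gated channels of the cortex, was at 91.5, 95.3, 97.3, 82.2 and 89.5 CPM in 5XFAD and at 100, 89.8, 111, 108 and 97.1 in 5XFAD;Neu cKO, ranges that overlapped. Its log2 fold change was 0.15, with an interval from -0.05 to 0.35 and an adjusted p of 0.805 by edgeR. Kcnj4, a strong rectifier of forebrain neurons, was at 135 ± 12.7 and 128 ± 15.0 CPM in 5XFAD and 5XFAD;Neu cKO. Kcnj11, the pore of the ATP-sensitive channel, was at 23.2 ± 5.73 and 26.2 ± 3.76 CPM, and Kcnj2, the classical strong rectifier, at 15.1 ± 5.61 and 18.5 ± 3.80. Kcnj8, the ATP-sensitive pore of mural cells, was near its floor at 2.59 ± 1.91 and 2.55 ± 1.25 CPM, with 1 to 27 reads per library.

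Of the 10 K2P genes (Kcnk), which carry the leak current, 8 were lower with a median of -0.10. Kcnk3, an acid-sensitive leak channel, was at 28.5, 25.1, 15.4, 24.6 and 26.7 CPM in 5XFAD and at 21.1, 20.6, 19.7, 16.0 and 18.8 in 5XFAD;Neu cKO. Replicate 3 of 5XFAD alone lay under the highest 5XFAD;Neu cKO library. The log2 fold change was -0.32 with an adjusted p of 0.740 by edgeR. Its unadjusted p was under 0.05 in 1 of 10 fits with a library left out, that without replicate 3 of 5XFAD. With all libraries kept, this held in 0 of 7 alternatives. Leaving out the library that ran against the direction favours a low p, so that fit is no support. Kcnk2, a stretch- and lipid-gated leak channel, was at 65.3 ± 11.3 and 71.1 ± 10.4 CPM in 5XFAD and 5XFAD;Neu cKO.

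The 13 auxiliary subunits gave 8 lower and 5 higher genes with a median of -0.04, and 0 passed an unadjusted 0.05 by edgeR. Kcnab2, the main Kv beta subunit, which carries Kv1 channels to the axon, was at 148 ± 5.10 CPM in 5XFAD and 144 ± 18.5 in 5XFAD;Neu cKO, and Kcnab3 at 17.1 ± 4.36 and 20.6 ± 3.81. Kcnip2, a calcium-binding partner of Kv4 channels, was at 99.7 ± 19.1 and 103 ± 6.41 CPM. Kcne5, a single-span subunit, was at 5.21 ± 2.56 and 5.84 ± 1.55 CPM, and Kcnrg, a regulator that forms no pore, at 1.11 ± 1.03 and 0.426 ± 0.364. In each of these genes the groups overlapped.

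Genes outside the family that act with these channels were read from a list of anchoring, clustering and accessory proteins and a list of pumps and cotransporters. Of 20 partners, 18 were tested, with 12 lower, 6 higher, 0 past the adjusted threshold by edgeR and 6 (4 lower and 2 higher) at an unadjusted p under 0.05. Of all genes, 7.95% were under that p and 50.1% were lower, and at 50 CPM or more these shares were 14.1% and 56.9%. Dpp6, the accessory subunit that speeds Kv4 channels, was at 135, 172, 146, 164 and 167 CPM in 5XFAD and at 137, 136, 135, 122 and 111 in 5XFAD;Neu cKO, with a log2 fold change of -0.29 ± 0.09 (SE) and an adjusted p of 0.318 by edgeR. Cntnap2, which clusters Kv1 channels beside the node of Ranvier, had a log2 fold change of -0.25 ± 0.10 (SE) and an adjusted p of 0.451. Both genes had groups that overlapped.

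All 12 pump and cotransporter genes were tested, with 10 lower, 2 higher, 0 past the adjusted threshold by edgeR and 3, all lower, at an unadjusted p under 0.05, to be read against the same shares of all genes. Atp1b1, the beta subunit of the sodium pump that drives potassium back into the cell, was at 3109, 3026, 2973, 2691 and 2932 CPM in 5XFAD and at 2668, 2398, 2630, 2695 and 2392 in 5XFAD;Neu cKO. Replicate 4 of each group made the only overlap, by 2691 and 2695 CPM. The log2 fold change was -0.20 ± 0.06 (SE), with an adjusted p of 0.226 by edgeR and 0.0206 by DESeq2, the only gene of both lists past the threshold in either tool.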

How the data were processed

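Bulk RNA of 10 cortices was analysed, 5 per group as the labels give them. The authors made QuantSeq 3′ libraries, trimmed reads with bbduk, aligned them to GRCm39 with STAR 2.7.3a and counted reads per Ensembl gene with htseq-count (HTSeq 0.9.1 in the submitters' processing notes). The strand setting is not given in the sources used here, so the 31 Kcn genes with another GENCODE gene over their 3′ end, among them Kcna2, Kcnc1 and Kcnh7, are uncertain. The authors counted on annotation files of Ensembl, and whether each of these neighbours was in them was not tested. The values they deposited are whole-number counts without normalization. Names came from GENCODE, which matched 52610 of 53700 identifiers. Reads on no gene (31.3% to 39.9%) entered neither sizes nor tests.

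Genes with a total over 10 were tested with edgeR 4.0.16 in R 4.3.3 (TMM, quasi-likelihood, condition as the only term, threshold 0.05), with Benjamini-Hochberg adjustment over all 19268 genes and 95% intervals from the same fit. Single genes were also compared by the exact two-sided permutation test of mean log2 CPM (prior count 2) over 252 relabellings, without adjustment. DESeq2 1.42.0, its size factors, other filters, a robust fit, no mitochondrial genes, a replicate block and each library left out were tried. The steps were run on simulated counts drawn with the spread of the same fit. Such counts cannot show whether its intervals hold for these genes. No source gives separate litters or extractions, so the spread is that between these mice. The edgeR p-values, SEs and intervals use a spread fitted in part from other genes. The permutation test uses the libraries of each gene alone. No pair of libraries within a group agreed within sampling noise.

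The members, lists and tests were chosen with earlier results of these data known. Named genes are the 8 with the lowest p in each direction, the most abundant of each subfamily, genes known in a cell type, Mylip, and the 2 partners and 2 pumps with the lowest p. A few genes under this rule are left unreported. Gfap, Mobp and Mog are named beside their lists, chosen after their values were seen.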

Additional observations from a re-analysis of the deposited data

Results flagged for a closer look

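A library that stood far from the other 4 of its group was found in 5 of 104 groups of 5 examined (Kcn genes named here and subfamily sums), where chance gives about 1 in 20. Kcnj4 was at 154 CPM in replicate 2 of 5XFAD;Neu cKO, where the other libraries of the group lay between 118 and 126. Kcnk13 was at 7.63 CPM in replicate 5 of 5XFAD, where the next highest was 3.91, and Kcng2 was at 1.64 CPM in replicate 2 of 5XFAD, where the next lowest was 5.43. Kcns3 was at 11.2 CPM in replicate 1 of 5XFAD;Neu cKO, where the next highest was 3.49. The summed level of the sodium-activated and SLO3 genes (Kcnt1, Kcnt2 and Kcnu1) was 49.3 CPM in 1 library of 5XFAD, where the next lowest was 66.0.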

How the results depend on the processing

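The count of 0 Kcn genes past an adjusted p of 0.05 held under all 17 alternatives. The median log2 fold change of the Kcn genes lay between -0.11 and -0.05. Kcn genes at an unadjusted p under 0.05 numbered 4 in each alternative that kept all libraries, and 2 to 5 when single libraries were left out. Kcna6 was among them each time, Kcnj10 was lost without 5XFAD replicate 3 or 5XFAD;Neu cKO replicate 2, and Kcnj16 without 5XFAD;Neu cKO replicate 1 or 2. Partner and pump genes past the adjusted threshold numbered 0, and 1 by DESeq2. Over all genes 42 passed, and 73 did by DESeq2, 103 without a filter, 112 with a replicate block and 26 to 72 with single libraries left out; the cause was not tested. Same-numbered libraries did not deviate together (correlations of -0.076 to 0.045 over 5000 genes), so no pairing by number was seen. That check cannot exclude a batch shared by number. The replicate block changed no Kcn call. Directions turned for 11 named genes, none of which had an unadjusted p under 0.05 in the main comparison: Kcnj8 reached 0.057 under the replicate block and -0.337 to 0.350 without single libraries, and the ranges without single libraries were -0.055 to 0.021 for Kcna2, -0.109 to 0.011 for Kcnab2, -0.052 to 0.367 for Kcne5, -0.031 to 0.153 for Kcnip2, -0.173 to 0.030 for Kcnk1, -0.188 to 0.243 for Kcnk13, -0.701 to 0.181 for Kcnk6, -0.015 to 0.081 for Kcnq3, -0.491 to 1.18 for Kcns3 and -0.079 to 0.028 for Kcnt1.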

Other observations

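Kcnq1ot1, a noncoding RNA transcribed within the Kcnq1 locus and known for silencing its neighbours on the paternal chromosome, shares the symbol stem but is no channel gene, and it was looked at after its values were seen. It was at 460, 415, 524, 608 and 366 CPM in 5XFAD and at 527, 393, 267, 253 and 360 in 5XFAD;Neu cKO, ranges that overlapped. Its log2 fold change was -0.40 ± 0.12 (SE), with an adjusted p of 0.190 by edgeR's quasi-likelihood test. The exact permutation test gave p = 0.103 (n = 5 per group), and DESeq2 gave an adjusted p of 0.529. Kcnq1 itself was at 0.508 CPM over the 10 libraries. Lrrc55, an auxiliary subunit of BK channels, was at 18.6, 15.5, 18.6, 20.5 and 10.3 CPM in 5XFAD and at 23.7, 21.5, 21.4, 26.1 and 22.3 in 5XFAD;Neu cKO, groups that did not overlap, with a log2 fold change of 0.45 ± 0.19 (SE) and an adjusted p of 0.517 by edgeR. It too was named after its values were seen, as the only 1 of the 30 tested partner and pump genes without overlap. Of all genes, 1.3% had groups that did not overlap (0.576% higher).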
